A study of Mus musculus with 8 samples.

Results

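Epithelial and mesothelial marker genes were examined in mouse embryonic fibroblasts (MEFs), a primary culture grown out of whole embryos that is mostly fibroblasts but can carry other embryonic cell types. The 10 genes were the keratins Krt7, Krt8, Krt18, Krt19 and Krt14, the junction genes Cdh1 and Cldn1, and the mesothelial genes Msln, Upk3b and Wt1. They were found by the gene name on the array, out of 27745 gene names measured, and held 13 of the 41174 gene probes. The cells were Lats2-/- or Lats2+/+ MEFs on C57BL/6J, without treatment, from litters 112, 116 and 121. Each litter gave 1 RNA extract per genotype, so that there were 3 extracts of each. Lats2 encodes a kinase of the Hippo pathway, and the labels name no Cre driver or other transgene. The build of the Lats2 allele, the embryonic stage and the passage were not given in the sources used here, and each extract stands for 1 named culture, so that genotype and culture differ together within a litter.

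The question was whether epithelial or mesothelial cells left a signal in any extract, and whether it differed with Lats2. Epithelial cells build their intermediate filaments from keratins, in which a type II keratin (Krt7, Krt8) pairs with a type I keratin (Krt18, Krt19, Krt14), and hold to each other through E-cadherin (Cdh1) and tight junctions (Cldn1). Fibroblasts use vimentin and N-cadherin instead. Mesothelium, the lining of the body cavities, comes from mesoderm and carries features of both kinds of cell. It expresses simple keratins together with mesothelin (Msln), uroplakin 3b (Upk3b) and the transcription factor Wt1. In a bulk extract, fewer cells of a type and less RNA per cell cannot be told apart.

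Both extracts of a litter were hybridised to the same Agilent arrays with the dyes swapped, on 2 arrays each for litters 112 and 116 and 4 for litter 121. All ratios are log2 ratios of Lats2-/- over Lats2+/+, averaged over the arrays of a litter, and n = 3 litters. Levels are log2 signals of 1 probe and were compared between extracts, not between probes. Litters 112 and 116 shared slide 1, and litter 121 was alone on slide 2, so that this litter and its slide cannot be told apart. The upstream Lats2 probe was lower in the Lats2-/- extract of all 3 litters, at -1.33, -1.05 and -0.56 (112, 116, 121), whereas the other 3 Lats2 probes, which lie further downstream, had ratios of -0.18 to -0.28 in litter 112, -0.49 to -0.70 in litter 116 and 0.80 to 1.17 in litter 121. Without the extent of the deletion these 3 probes do not check the labels. A fibroblast list of 16 genes had 14 or more detected in every extract but Lats2-/- 121, with 13. That extract also held 675 genes detected nowhere else, against 55 to 168 in the other five.

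Keratin 8 and keratin 18, the pair that forms the first filaments of simple epithelium, were detected in 1 extract only, the Lats2+/+ extract of litter 116. Their genes lie close together on mouse chromosome 15, as does Krt7. The RefSeq promoter table (GRCm38.p6) held an entry for 6 of the 10 genes. Krt19, Cdh1, Msln and Wt1 had none. The 3 promoters of Krt8, Krt18 and Krt7 are printed because they share the letters CACCTG. These letters, or CAGGTG on the other strand, form an E-box that the epithelial-mesenchymal transition (EMT) factors Snai1, Snai2, Zeb1 and Zeb2 can bind. Each sequence gives the 250 bases before the transcription start, 5′ to 3′ on the gene's own strand, with the E-box in capitals. Krt8 is read from the minus strand at chr15:102004343-102004592, Krt18 from the plus strand at chr15:102027966-102028215 and Krt7 from the plus strand at chr15:101412153-101412402.
Krt8: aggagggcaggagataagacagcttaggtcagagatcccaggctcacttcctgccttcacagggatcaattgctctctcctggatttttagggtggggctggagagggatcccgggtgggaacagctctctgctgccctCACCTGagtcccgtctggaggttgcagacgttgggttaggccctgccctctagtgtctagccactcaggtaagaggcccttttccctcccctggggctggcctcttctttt
Krt18: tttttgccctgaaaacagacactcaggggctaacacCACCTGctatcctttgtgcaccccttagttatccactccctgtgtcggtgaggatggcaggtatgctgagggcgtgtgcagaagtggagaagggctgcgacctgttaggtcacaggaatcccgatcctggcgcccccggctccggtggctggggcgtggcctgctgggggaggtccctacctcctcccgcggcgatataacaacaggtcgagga
Krt7: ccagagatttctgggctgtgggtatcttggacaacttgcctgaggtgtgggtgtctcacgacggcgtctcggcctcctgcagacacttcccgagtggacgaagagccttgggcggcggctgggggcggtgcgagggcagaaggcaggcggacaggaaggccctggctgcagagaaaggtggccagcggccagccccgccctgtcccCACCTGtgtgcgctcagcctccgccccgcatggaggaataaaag
The E-box begins 111 bases before the start in Krt8, 214 in Krt18 and 44 in Krt7. Either form was present in the 250 bases of 17.2% of the 32851 promoters in the table, and in 3 of the 6 marker promoters. The core GGAATG, or CATTCC on the other strand, which TEAD factors of the Hippo pathway recognise, was present in 12.6% of all promoters. Among the markers it was present in Krt14 and Upk3b. The Cldn1 promoter held neither. A match is a run of letters and says nothing about binding in these cells.

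Detection came first, since a marker at background has no level to compare. A probe counted as detected where the scanner flagged it well above its local background on the majority of an extract's arrays, and a gene where any of its probes did. The Lats2-/- extract of litter 112 held 5 of the 10 markers and its Lats2+/+ littermate 4. The counts were 4 and 6 for litter 116, and 6 and 5 for litter 121. Over all gene names the share detected ran from 50.1% to 56.3%, so that the markers were detected about as often as other genes, and neither genotype held more of them in every litter. Krt7, Msln and Cldn1 were detected in all 6 extracts, Krt14 in 5 and Krt19 in 4. Krt8 and Krt18 were found only in Lats2+/+ 116, Cdh1 only in Lats2-/- 121, and Upk3b and Wt1 nowhere. Of all gene names, 4.36% were detected in a single extract, 40.1% in none and 46.3% in all 6. No extract held the whole set of either tissue.

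**Figure D1:**
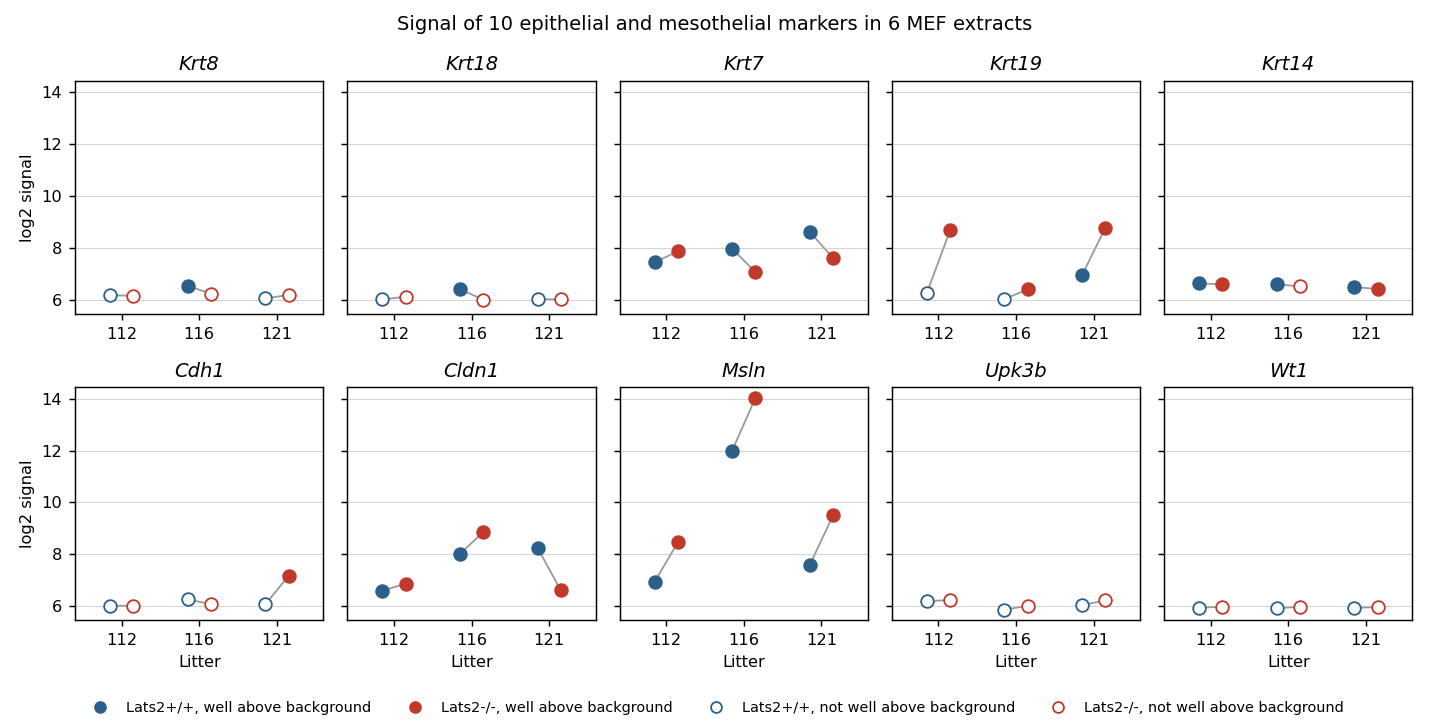
Log2 signal of the brightest probe of each of the 10 markers (y axis) in the Lats2+/+ (blue) and Lats2-/- (red) extract of each litter (x axis), with filled circles where the probe was well above background and lines joining the extracts of a litter. Msln spans 6.93 to 14.03 and is higher in Lats2-/- in each litter, while Upk3b and Wt1 are open in all 6 extracts.

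Across genotypes, no marker passed the adjusted threshold. limma called 0 of 22642 kept probes at an adjusted p under 0.05, which is 0%, and 1549 probes (6.84%) at an unadjusted p under 0.05. The methods' t-test with Benjamini-Hochberg adjustment called 0 as well. Fits that took arrays as replicates called more, 341 probes with litter and 717 with slide as a random block. Of the 13 marker probes, 7 passed the filter on dim probes, 2 each of Krt7 and Cldn1 and 1 each of Krt19, Krt14 and Msln, and entered the fit. Msln and Krt19 reached an unadjusted p under 0.05, both higher in Lats2-/-, against 3.56% of kept probes in that direction, and no marker in the other, against 3.29%. Both also met the study's criterion of a 2-fold change with p under 0.05, applied here with limma's p, which 0.835% of kept probes met in either direction and 0.636% as higher in Lats2-/-. Msln and Krt19 were higher in Lats2-/- in all 3 litters, as were 15% of kept probes. The Krt14 probe was lower in all 3, as were 14.8%. The Lats2-/- and Lats2+/+ signals did not overlap, higher in Lats2-/-, for 3.09% of kept probes and for no kept marker probe. In litter 112, Msln and Krt19 differed at least 2-fold, as did 3.77% of kept probes. In litter 116 only Msln did, against 7.71%, and in litter 121 Msln, Krt19, the brighter Krt7 probe and both Cldn1 probes did, against 6.09%. Krt19 was kept through its 3 Lats2-/- extracts, with 1 Lats2+/+ extract detected, so that the filter itself selected for a difference there, and its p and its place under the 2-fold criterion are given as a description.

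Mesothelin, a surface protein of mesothelium with little known function in normal tissue, had a higher signal in Lats2-/- of every litter, by a similar amount. Its probe (A_51_P146560, chr17:25476224-25476283 in mm8, minus strand) had a log2 signal of 8.46 in Lats2-/- and 6.93 in Lats2+/+ of litter 112. The signals were 14.03 and 12.00 in litter 116, and 9.50 and 7.59 in litter 121. The Lats2-/- extract was the brighter of the pair in every litter, but the genotypes overlapped across litters, since both extracts of litter 116 stood above all others. The brightest and the dimmest extract differed 137-fold. The litter ratios were 1.52, 2.03 and 1.91, and every one of the 8 arrays was positive, from 1.46 to 2.18. The mean ratio was 1.82 ± 0.26 (SD, n = 3), or 3.53-fold (limma adjusted p = 0.634). No kept probe had a smaller adjusted p, but Benjamini-Hochberg can give several probes the same value, so that this does not rank Msln first. limma's unadjusted p for Msln was 2.99e-04. The ratio was at least 2-fold in each litter, as it was for 48 kept probes, 0.212% of them. With the litter left out of the fit, as 3 against 3 unpaired extracts, limma's p for Msln was 0.374 (adjusted p = 0.9996).

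Some other mesothelial genes were not detected beside it. Upk3b, an apical protein of mesothelium and bladder lining, had signals between 5.86 and 6.23 and was flagged on a single array in 3 extracts, Lats2-/- 112, Lats2-/- 121 and Lats2+/+ 121. Wt1, a zinc finger factor of the embryonic mesothelium, kidney and gonad, had signals between 5.92 and 5.97 and was flagged on no array, although its probe is printed 10 times on each. In litter 116, where Msln was brightest, Upk3b was flagged on no array, with signals of 6.02 in Lats2-/- and 5.86 in Lats2+/+. Of 9 further mesothelial genes on the array, 4 were detected in no extract (Gpm6a, Muc16, Calb2 and Aldh1a2), against 40.1% of all gene names. A pair of genes was picked after their values were seen. Upk1b, another uroplakin, was detected only in Lats2-/- 121, where it was at least 1.47-fold brighter than in the Lats2+/+ littermate. Bnc1, a zinc finger factor, was flagged on no array of that extract, and its Lats2+/+ littermate was at least 4.07-fold brighter. In litter 112 the Lats2-/- extract was at least 1.22-fold brighter for Bnc1, and in litter 116 the ratio was 0.08. Tbx18, a T-box factor of the embryonic epicardium and other mesenchyme, was detected in all 6 extracts with litter ratios of -0.58, 1.03 and 0.24. Rspo1, a secreted activator of Wnt signalling, had -0.11, -0.71 and 0.77, and the lymphatic and mesothelial glycoprotein Pdpn had 0.51, -1.99 and 0.63. Rspo1 read 8.34 in Lats2-/- and 9.05 in Lats2+/+ of litter 116, against 6.21 and 6.31 in litter 112. Bnc1 read 7.76 and 7.68 against 6.38 and 5.93, and 8.06 in Lats2+/+ 121. Tbx18 was dimmer in litter 116, at 9.78 and 8.75 against 10.11 and 10.69. Pdpn read 6.39 and 8.38 against 7.36 and 6.85. None of the 4 kept genes of this list reached an unadjusted p under 0.05, and none kept 1 sign in all 3 litters, against 29.7% of kept probes that did.

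Krt19, a type I keratin of simple and ductal epithelium and of mesothelium, had a higher signal in Lats2-/- of each litter, by an amount that varied widely. Its probe (A_51_P356642, chr11:99957168-99957227 in mm8, minus strand) read 8.67 in Lats2-/- and 6.25 in Lats2+/+ of litter 112, 6.40 and 6.02 in litter 116, and 8.77 and 6.94 in litter 121. The Lats2-/- extracts of litters 112 and 121 stood above the rest, while that of litter 116 was below Lats2+/+ 121. The litter ratios were 2.42, 0.37 and 1.83, with a mean of 1.54 ± 1.05 (SD, n = 3; limma adjusted p = 0.711). The probe was not detected in Lats2+/+ of litters 112 and 116, so that these ratios were taken against background and their size depends on how background was corrected, with a mean of 3.26 from the processed signals. In litter 112 the Lats2+/+ extract was flagged on 1 of 2 arrays. In litter 116 the probe was flagged on no Lats2+/+ array, and the difference was at least 1.20-fold. The gene did not follow Msln between litters, since litter 116 had the brightest Msln and the dimmest Krt19. Across the 6 extracts the log2 signals of the 2 genes had r = -0.30.

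Krt7, the type II keratin of ducts and mesothelium that can pair with Krt19, did not share its pattern over the litters. Its brighter probe (A_51_P312348, chr15:101255775-101255834 in mm8, plus strand) read 7.87 in Lats2-/- and 7.44 in Lats2+/+ of litter 112, 7.06 and 7.97 in litter 116, and 7.60 and 8.62 in litter 121. The Lats2-/- extract was thus the brighter in litter 112 and the dimmer in the others. The ratios were 0.43, -0.90 and -1.02, with a mean of -0.50 ± 0.81 (SD, n = 3; limma adjusted p = 0.785). The mean was -0.96 without litter 112, -0.30 without litter 116 and -0.24 without litter 121. The second Krt7 probe had the same signs, at 0.24, -0.36 and -0.52 (limma adjusted p = 0.830). Litters 112 and 116 were on the same slide and had opposite signs, on both arrays of each litter.

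Krt8 and Krt18 were near background in most extracts. The first Krt8 probe (A_51_P242400, chr15:101824817-101824876 in mm8, minus strand) read 6.54 in Lats2+/+ 116 and at most 6.23 elsewhere. The second (A_51_P242399) read 6.51 there and at most 6.19 elsewhere. The Krt18 probe (A_51_P324814, chr15:101859944-101860003 in mm8, plus strand) read 6.41 in Lats2+/+ 116 and at most 6.12 in the others. All 3 probes were flagged on both arrays of that extract. The Lats2+/+ extract was at least 1.23-fold and 1.25-fold brighter than its Lats2-/- littermate by the Krt8 probes, and at least 1.24-fold by the Krt18 probe, and in the other litters neither genotype was well above background. These differences rest on 1 extract of each genotype, and the SD of 0.07 to 0.13 between the 2 arrays of that litter covers technical spread only.

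Krt14, the type I keratin of basal cells of stratified epithelium, sat just above background. Its signals lay between 6.42 and 6.63, and the probe (A_51_P506417) was detected in every extract except Lats2-/- 116. The ratios were -0.04, -0.08 and -0.07, with a mean of -0.06 ± 0.02 (SD, n = 3; limma adjusted p = 0.905). Over all gene names, 40.1% were detected in no extract and 46.3% in all 6. Of 10 other epithelial keratins, Krt4, Krt6a, Krt15, Krt20 and Krt23 were detected in no extract, and Krt5, Krt10, Krt13, Krt16 and Krt17 in all 6. None of the 5 reached an unadjusted p under 0.05. Krt10 had ratios of -0.07, -0.13 and -0.29, Krt16 of 0.09, 0.02 and 0.06, Krt5 of 0.03, 0.07 and 0.01, and Krt17 of 0.10, -0.05 and 0.33. The summed linear signal of the 10 keratins ranged from 1083 to 1144 over Lats2-/- extracts and from 1091 to 1139 over Lats2+/+ extracts. The sum includes the background signal of the 5 undetected keratins, so that it is not a measure of expression alone. Probes of similar keratins can share target sequence, which was not tested.

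**Figure D2:**
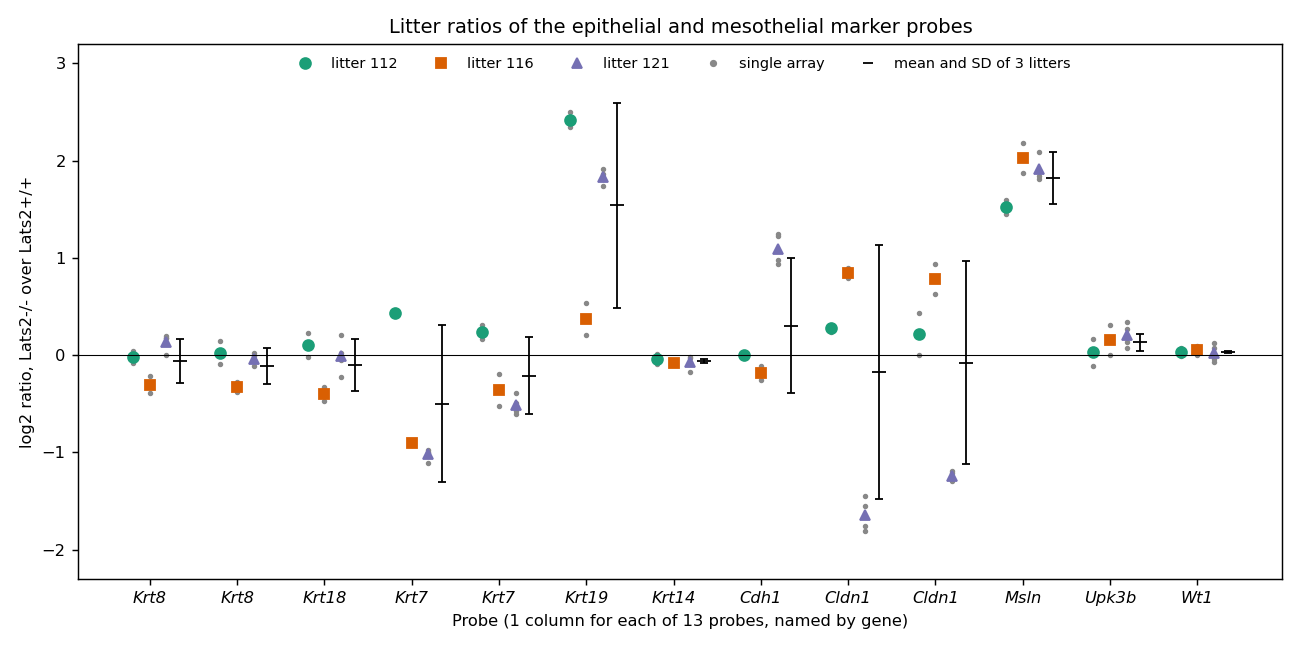
Log2 ratio of Lats2-/- over Lats2+/+ (y axis) for each of the 13 marker probes (x axis), with coloured symbols for the 3 litters, grey points for single arrays and a black bar with whiskers for the mean and SD of the litters. Msln and Krt19 are above 0 in all 3 litters, whereas both Krt7 and both Cldn1 probes take opposite signs in different litters.

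E-cadherin (Cdh1), the adhesion molecule that defines epithelial cells, was detected only in Lats2-/- 121. Its probe (A_51_P137336, chr8:109559041-109559100 in mm8, plus strand) read 6.01 in both extracts of litter 112, and 6.08 in Lats2-/- and 6.26 in Lats2+/+ of litter 116. In litter 121 it read 7.16 in Lats2-/- and 6.07 in Lats2+/+. It was flagged on all 4 arrays of the first and on no array of any other extract, and the Lats2-/- extract was at least 2.08-fold brighter than its littermate. The litter ratio of 1.09 came with array values of 0.94 to 1.24, and every one of the 8 to 10 usable repeat spots on those arrays was positive, from 0.68 to 1.51. In litters 112 and 116 the ratios were 0.00 and -0.19. The mean over litters was 0.30 ± 0.69 (SD, n = 3), with no test, since the probe was kept in neither genotype. Being detected only in Lats2-/- 121 was shared with 2.43% of all gene names, more than for any other extract (0.198% to 0.606%).

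**Figure D3:**
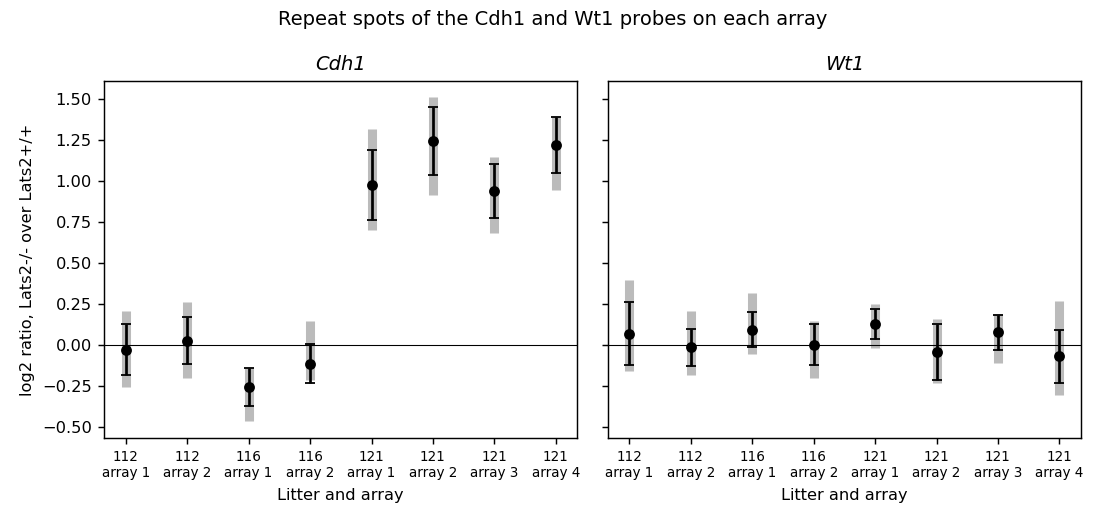
Log2 ratio of Lats2-/- over Lats2+/+ (y axis) over the repeat spots of the Cdh1 and Wt1 probes on each of the 8 arrays (x axis), with points and whiskers for the mean and SD of 8 to 10 spots and grey bars for the lowest and highest spot. The Cdh1 spots are above 0 on the 4 arrays of litter 121 and lie near or below 0 on the others, and the Wt1 spots scatter around 0 on all.

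Claudin 1 (Cldn1), a tight junction strand protein, was detected in every extract, with litter ratios of opposite sign. The brighter probe (A_52_P48681, chr16:26272635-26272694 in mm8, minus strand) read 6.87 in Lats2-/- and 6.59 in Lats2+/+ of litter 112, and 8.86 and 8.02 in litter 116. In litter 121 it read 6.61 in Lats2-/- and 8.25 in Lats2+/+. The Lats2-/- extract was the brighter in the litters of slide 1 and the dimmer in litter 121, where Cdh1 was detected. The ratios were 0.28, 0.85 and -1.64, with a mean of -0.17 ± 1.30 (SD, n = 3; limma adjusted p = 0.959), and the second probe gave 0.22, 0.78 and -1.24. Without litter 121 the mean was 0.56. A split of this kind, with litters 112 and 116 on one side of 0 and 121 on the other, was present in 24.4% of kept probes.

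Other junction and adhesion genes were measured to see whether Cdh1 in Lats2-/- 121 came with more of an epithelial set. Of 26 such genes, 13 were detected nowhere, against 40.1% of all gene names. Among the 13 were Epcam, the tight junction genes Ocln, Cldn4 and Cldn7, and the desmosomal cadherin and desmocollin Dsg2 and Dsc2. Of the 12 kept genes none reached an unadjusted p under 0.05. In litter 121, 9 of the 12 were higher in Lats2-/-, with a median of 0.09, against 4 in litter 112 and 6 in litter 116. Of all 14791 kept genes, 7524 were higher in Lats2-/- in litter 121, 7729 in litter 112 and 7495 in litter 116. Itgb4, the integrin chain of hemidesmosomes, had ratios of -0.38, -0.35 and 2.44. Pkp2, a desmosomal plaque protein, had -0.43, 2.67 and 0.10, Pkp3 of the same family had -0.41, -2.29 and -0.17, and Ppl had 0.45, 0.18 and 0.02.

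A few genes were singled out after their values were seen, for being high in Lats2-/- 121. F11r, the junctional adhesion molecule A, read 9.69 there and 7.53 in the Lats2+/+ littermate (ratio 2.15), and 7.35 or less in the other extracts. Cdh3, P-cadherin, had a ratio of 1.24 in that litter. Dsp, the desmosomal linker desmoplakin, read 10.50 and 9.55 in Lats2-/- and Lats2+/+ of litter 121 at its brightest probe. In the other 4 extracts that probe read 6.81 or less, so that both genotypes of litter 121 were high. A second Dsp probe read 9.16 and 8.44 in litter 121, and the remaining Dsp probes 6.31 or less. Pkp1 was at least 1.72-fold brighter in Lats2-/- 121. Esrp2, a splicing regulator of epithelial cells, was detected only in Lats2-/- 121, while its relative Esrp1 and the epithelial transcription factors Grhl1, Grhl2, Ovol1, Elf3, Elf5, Ehf and Trp63 were detected in no extract. Klf5, a zinc finger factor, had ratios of -0.01, 0.92 and 1.02, and Ovol2 had -0.04, 0.00 and 0.15. Epcam, Krt8 and Krt18 were not detected in Lats2-/- 121. Detection of the singled-out genes was not particular to this extract, since Cdh3, Klf5 and Ovol2 were detected in all 6 extracts and F11r in 4. Of the 26 junction and adhesion genes, 11 were detected in Lats2-/- 121, 10 in its littermate and 9 to 11 in the other extracts. The share over all gene names was 50.1% to 56.3%.

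The EMT factors, transcription factors that repress Cdh1 and related genes in mesenchymal cells, were detected in all extracts, except for Twist2 in Lats2-/- 121. None of the 6 reached an unadjusted p under 0.05. The list had a median ratio of 0.07, 0.51 and -1.26 in litters 112, 116 and 121. Snai2 had ratios of 0.34, -0.16 and 1.09, Zeb1 of 0.03, 1.21 and -0.58, and Zeb2 of -0.10, -0.17 and 1.23. The others were described after their values were seen. In litter 121 the ratio was -1.94 for Snai1 and -2.74 for Twist1, and the Lats2+/+ extract was at least 7.79-fold brighter for Twist2. So within the extract in which Cdh1 was detected, Snai1, Twist1 and Twist2 were below the littermate and Snai2 and Zeb2 above it.

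The medians of the fibroblast genes also differed in sign between litters 116 and 121. All 16 were kept, with median ratios of 0.14, 1.95 and -0.95 in litters 112, 116 and 121, against 0.02, 0.01 and 0.01 over all kept genes. The count higher in Lats2-/- was 11, 13 and 4 of 16, against 7729, 7495 and 7524 of all 14791 kept genes. Cdh2, the N-cadherin of mesenchymal cells, had ratios of 0.37, 0.70 and 1.76, and Postn, a matrix protein of connective tissue, had 0.80, 2.55 and 0.67. Both had an unadjusted p under 0.05 at these probes, the brightest of each gene, and a limma adjusted p of 0.711. A second, dimmer kept Cdh2 probe did not hold 1 sign, with ratios of -0.15, -0.01 and 0.32 (limma adjusted p = 0.948). Fn1, fibronectin, had ratios of 0.36, 2.40 and 0.07, and Col1a2, a collagen I chain, of -0.02, 1.84 and -0.72. Vim, vimentin, had 0.08, -1.19 and -0.07 at its brightest probe and 0.23, -0.72 and 0.20 at a second kept one. S100a4 had 0.15, -0.97 and -3.61. The surface markers Pdgfra and Thy1, named after their values were seen, had ratios of -4.96 and -3.66 in litter 121. This Pdgfra probe was flagged on 2 of the 4 arrays of Lats2-/- 121 and so did not count as detected there. Its ratio is one against a signal near background (6.30). A second Pdgfra probe was flagged on no array of that extract and had a ratio of -1.20. The part of cell composition in the marker ratios was not tested.

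**Figure D4:**
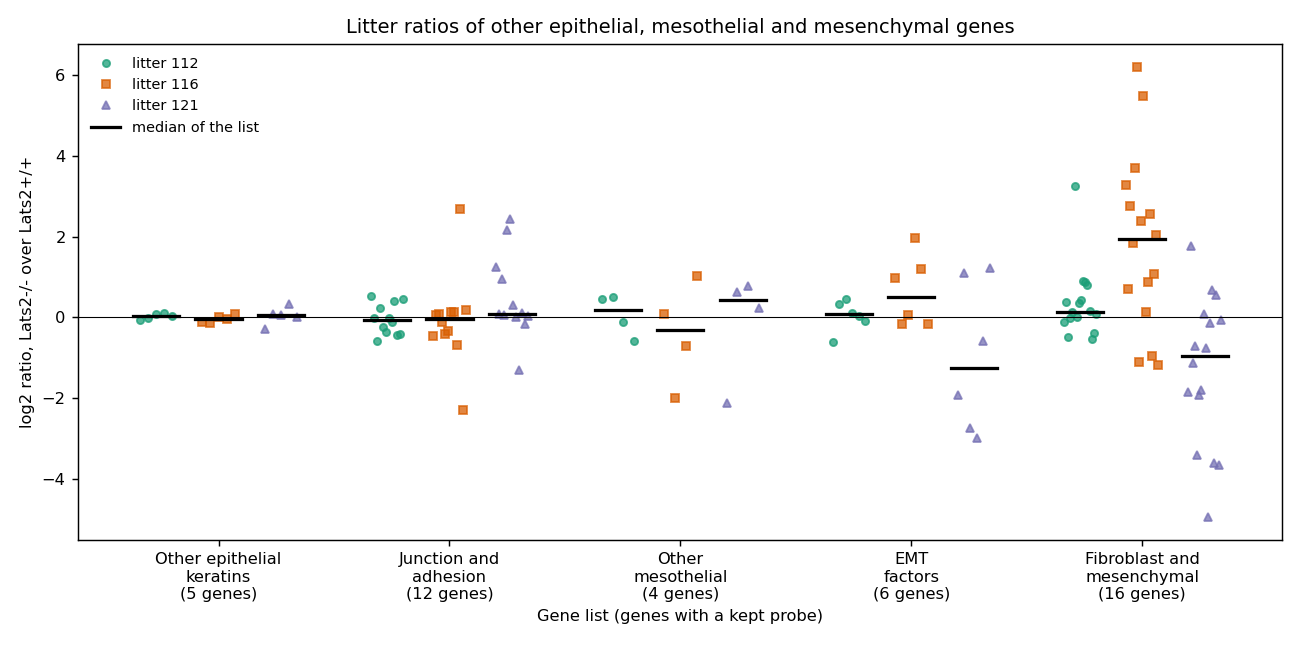
Log2 ratio of Lats2-/- over Lats2+/+ (y axis) of single genes in 5 lists (x axis), with 1 column of symbols per litter and black bars for the median of the list in that litter. The fibroblast medians are 0.14, 1.95 and -0.95 and the EMT factor medians 0.07, 0.51 and -1.26 in litters 112, 116 and 121, while the 5 keratins stay near 0.

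Markers of other cell types were also read in each extract, beside 50.1% to 56.3% of all gene names detected. Their summed signals include the background signal of undetected genes. Of 6 endothelial genes, 1 or 2 were detected in Lats2-/- extracts and 0 or 1 in Lats2+/+ extracts, with summed linear signals of 408 to 463 and 405 to 423, and the defining Pecam1 and Cdh5 were not detected in any extract. Of 6 blood genes, 1 to 3 were detected in Lats2-/- and 2 in each Lats2+/+ extract, with sums of 433 to 494 and 448 to 486, and Ptprc and Tyrobp were not detected in any extract. Of 6 neural genes, 3 or 4 were detected in Lats2-/- and 2 or 3 in Lats2+/+, with sums of 1031 to 7102 and 935 to 1501, and Sox2 was not detected in any extract. The highest neural sum was that of Lats2-/- 121, where Nes, an intermediate filament of progenitor cells, read 12.52 against 8.42 in the littermate.

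For the 5 markers detected in at least 3 extracts, the kept genes whose log2 signals correlated best with theirs over the 6 extracts were listed, as a description. The 2 extracts of a litter share their arrays, and the 4 extracts of litters 112 and 116 share slide 1. Msln went with Pik3r2 (r = 0.996), Aldh3a2 (0.993) and 5330430P22Rik (0.992). Krt19 went with 1810058I24Rik (0.997), Sirt2 (0.992) and Npc1 (0.984), and Krt7 with Slmap (0.981), Procr (0.964) and 6720456H20Rik (0.959). Cldn1 went with Dhrs9 (0.991), Pde10a (0.990) and Mtus1 (0.990). Krt14 went with Nsun5 (0.997), rp9 (0.997) and Smarcd2 (0.996), over a range of only 0.22 log2 units. No other marker or gene of the epithelial and mesothelial lists was among these 15 genes.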

How the data were processed

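RNA of 6 MEF extracts was measured on 8 two-colour Agilent arrays. The authors extracted the scans with Agilent Feature Extraction (version 10.5.1.1 in the submitters' processing notes, 10.7.3.1 in the headers). As deposited, the scanner output holds spot and background intensity on a linear scale, not normalized, processed intensity values, log10 ratios of red over green, and detection flags. The deposited series table holds the authors' log10 ratios, which differed from the scanner ratios by at most 0.005.

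Intensities were corrected with normexp (offset 50) and loess in limma 3.58.1 (R 4.3.3), after 860 outlier gene spots were removed. No gene spot was saturated. Repeat spots, then the arrays of a litter, were averaged with the dyes turned one way. Extract signals were taken after Aquantile scaling. The 22642 kept probes were detected in 2 or more of the 3 extracts of a genotype. The 3 litter ratios entered limma's two-sided test against 0 (lmFit, eBayes), and p-values were adjusted by Benjamini-Hochberg across the kept probes. The labels tie both genotypes to a litter through the clone names, which gives the pairing. The p-values measure the spread of the 3 litter ratios, each between the Lats2-/- and the Lats2+/+ culture of a litter. Scripts were tested on simulated data.

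Where only 1 extract of a litter had a flagged probe and its littermate had none on any array, the bright mean was set against the higher of the dim signal and the lowest detected signal, as an at least N-fold difference. Where several probes measured a gene, the brightest is reported and the others beside it. Between 52.9% and 61.3% of gene probes on an array channel were well above background, and the number of arrays limits the precision.

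The 10 genes and all lists were chosen with earlier results of these data known. All member genes were named with all probes. From the other lists, the named genes were those with an unadjusted p under 0.05, up to 3 with the largest ratio of 1 sign in all litters, and up to 3 with the highest signal. A gene that this rule names is not reported here. Promoters came from RefSeq (GRCm38.p6), and probe positions from the files (mm8), and the builds were not combined. The accessions of 12 of the 13 probes matched a transcript of the same symbol. Exon and UTR positions were not analysed here.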

Additional observations from a re-analysis of the deposited data

How the results depend on the processing

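Over 14 alternatives the mean log2 ratio stayed between 1.72 and 2.27 for Msln and between 1.10 and 3.26 for Krt19, both higher in Lats2-/- throughout. The only sign change of a marker in the fit was Cldn1, at 0.56 without litter 121 (-0.68 without litter 116). Krt19 and Krt14 were not tested under the filter asking for all 6 extracts, which removed them. No marker passed the adjusted threshold except where arrays stood as replicates, although the arrays of a litter repeat the same extracts. Then 2 passed with litter as a random block, Msln (limma adjusted p = 0.00142) and Krt19 (0.0387), and 1 with slide as a random block, Msln (5.56e-04). Over all alternatives, adjusted p ran up to 0.9996 for both. The number of kept probes past the adjusted threshold was 341 with the litter block (correlation 0.869), 717 with the slide block (correlation 0.402), and 0 otherwise, also on leaving out any litter. The number of probes that met the criterion of a 2-fold change and limma's unadjusted p was 189, and it became 305 with a normexp offset of 16, 550 with the processed signals, 545 with the deposited value table, 413 with the litter block, 441 with the slide block and 71 with the methods' t-test. Without the replicate block, which ignores the pairing by litter, it was 112, and no marker passed. It ranged from 260 to 373 when each litter was left out in turn. The causes were not tested. The detection counts of 4 to 6 markers per extract ranged from 4 to 8 under other flags, dyes and rules for an extract. Dim markers limit the comparison: a signal near 6 is background, and no cell share can be read from it.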
